A study of Mus musculus with 18 samples.

Results

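Potassium channel genes in beta cells were taken as the protein-coding genes whose GENCODE M21 symbol starts with Kcn, plus Abcc8 and Abcc9, with a mean of at least 1 CPM (the counts-per-million-reads scale) over the 18 deposited libraries. Of 96 such genes, 50 met this level and 46 did not, among 12551 protein-coding gene IDs at or above it and 53090 gene IDs in all. The genes were selected on their mean level over all libraries, so that their abundance is given as a description and only differences between groups were tested. Just inside the limit lay Kcnj8 (1.01 CPM), Kcnk6 (1.09), Kcnj10 (1.11), Kcnj4 (1.12) and Kcnq1 (1.12), and just outside lay Kcnh5 (0.931), Kcnip3 (0.833), Kcnt1 (0.828), Kcnrg (0.744) and Kcnj3 (0.742). For 8 of the 50 (Abcc9, Kcne3, Kcnj10, Kcnj4, Kcnj8, Kcnk6, Kcnq1 and Kcns3) at least 1 group had a mean under 1 CPM, so that they entered through the groups in which they were higher, and a difference between groups in these is in part set by the choice. All 50 passed the filter on low counts and were tested.

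The libraries were made from beta cells sorted from the islets of LIRKO mice, in which the insulin receptor was deleted in the liver only, and of control (Ctrl) mice, each fed chow or HFD, an abbreviation taken here to mean a high-fat diet. Chow was represented by 6 Ctrl and 4 LIRKO libraries and HFD by 5 Ctrl and 3 LIRKO libraries. In every group islets were cultured overnight and dispersed before cells were sorted by scatter and by their own fluorescence, a gate that does not select on a protein marker. The labels give no age, sex, strain, deletion driver or length of diet, and they do not tie libraries to animals, so that a p-value here reflects the variation among libraries, some of which may be technical.

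In a beta cell at rest, open ATP-sensitive potassium channels hold the membrane near the potassium potential. When glucose is metabolised the ratio of ATP to ADP rises, these channels close, the membrane depolarises, calcium enters and insulin is released. Voltage-gated and calcium-activated potassium channels then repolarise the cell after each action potential, and tandem-pore (K2P) channels carry a background current. Silent subunits form no channel alone but change the gating of partner pores, and auxiliary subunits alter the trafficking and gating of the pores they bind.

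Promoter sequence is shown for 4 genes on whose differences the results turn: Kcnip2 and Kcns3, which were higher in LIRKO, Kcnj12, which was lower, and Kcnf1, which was lower on HFD. Windows come from RefSeq on GRCm38.p6, in which 35 of the 50 genes had a window (49 windows in all). Each is the 250 bases before a RefSeq start site, 5′ to 3′ on the gene's strand, and the shown windows overlap no exon of GENCODE M21. The Kcnip2 window is chr19:45816064-45816313 (minus strand), the Kcns3 window chr12:11150374-11150623 (minus), the Kcnj12 window chr11:61065554-61065803 (plus) and the Kcnf1 window chr12:17176889-17177138 (minus). The Kcnj12 window precedes an internal start site, 43240 bases inside the gene as GENCODE M21 annotates it, and that of Kcns3 a site 683 bases inside. Kcns3 has a second window (chr12:11150843-11151092), which overlaps an exon and is not shown. Capitals mark matches, on either strand, to the GC box with its letters GGGCGG, the box named for its letters CCAAT and the ETS motif CCGGAAG.
Kcnip2: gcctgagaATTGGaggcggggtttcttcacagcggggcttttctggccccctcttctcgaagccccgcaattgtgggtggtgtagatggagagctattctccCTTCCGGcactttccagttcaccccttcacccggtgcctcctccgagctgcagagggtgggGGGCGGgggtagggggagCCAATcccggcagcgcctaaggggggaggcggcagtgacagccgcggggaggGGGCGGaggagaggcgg
Kcns3: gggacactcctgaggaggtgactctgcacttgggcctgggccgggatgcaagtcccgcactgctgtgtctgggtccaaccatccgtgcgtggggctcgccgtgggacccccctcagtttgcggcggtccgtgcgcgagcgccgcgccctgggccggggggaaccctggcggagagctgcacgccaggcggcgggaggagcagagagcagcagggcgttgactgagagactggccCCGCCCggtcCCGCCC
Kcnj12: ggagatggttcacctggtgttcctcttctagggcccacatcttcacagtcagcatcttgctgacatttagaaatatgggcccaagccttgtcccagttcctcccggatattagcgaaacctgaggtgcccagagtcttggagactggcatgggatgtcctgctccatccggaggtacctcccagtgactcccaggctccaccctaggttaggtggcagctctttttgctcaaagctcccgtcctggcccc
Kcnf1: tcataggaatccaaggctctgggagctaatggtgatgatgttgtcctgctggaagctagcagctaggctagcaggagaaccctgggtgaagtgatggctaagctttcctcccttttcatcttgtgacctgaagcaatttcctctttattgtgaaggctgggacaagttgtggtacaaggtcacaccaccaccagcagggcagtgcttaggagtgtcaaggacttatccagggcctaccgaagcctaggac
The Kcnip2 window held 2 GC boxes, 2 CCAAT boxes and 1 ETS match at 66.8% GC, and the Kcns3 window shown held 2 GC boxes at 72.8% GC, while its other window held no match at 47.2% GC. The Kcnj12 and Kcnf1 windows, at 56.0% and 51.2% GC, held none of the 7 motifs searched, which were these 3, the TATA box (TATAAA), the E-box (CACGTG), the cyclic AMP response element (TGACGTCA) and a forkhead motif (GTAAACA). Over the 49 windows of channel genes a GC box was present in 51.0%, against 32.7% of the 32851 windows of all genes, and TATAAA in 0% against 12.4%. CCAAT was present in 28.6% against 33.8%, CACGTG in 8.16% against 6.02%, and CCGGAAG in 2.04% against 6.91%. TGACGTCA and GTAAACA were present in none, against 1.55% and 3.17% of all windows. The median GC content was 58.8% against 52.4%. These are matches of letters and not tests of binding. The windows of all genes carry no limit on level, so that the differences in share need not be particular to channel genes. The 49 windows belong to 35 genes, and Kcnj11 and Abcc8 had none.

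Total counts ran from 19490235 to 51714775 per library. Ctrl HFD replicates 1 and 2 stood apart, with the lowest totals, 1.06% to 1.37% of counts from the nuclear RNA Malat1 (0.0866% to 0.6% in the other 16) and 95.6% to 95.7% from protein-coding genes (97.1% to 98.8%). LIRKO chow replicates 1 and 2 were nearly identical, as were replicates 3 and 4. The median absolute deviation of their log2 ratios over 11368 genes was 0.063 and 0.073, and at least 0.12 in the other pairs of libraries from 1 group. The labels do not say whether the libraries of such a nearly identical pair come from separate animals. Counts of channel genes called in each comparison are therefore also given with each of these pairs summed to 1 library and, where it matters, without Ctrl HFD replicates 1 and 2. Beta cell markers summed to 99830 to 234136 CPM in every library, with Ins2 at 59881 CPM or more. Of 10 such markers 3 were called lower in LIRKO averaged over diets (30.0%, against 2.52% of all genes) and 0 higher. On HFD averaged over genotypes 3 were called lower (30.0%, against 9.18%) and 0 higher. The median log2 changes of the 10 were −0.57 and −0.38. Markers of endothelial cells and of mural cells (pericytes, smooth muscle and stellate cells) differed between libraries and are given beside the genes they moved with. Insr, which was deleted in the liver and does not check the labels in beta cells, was at 33.4 to 63.5 CPM.

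Measured per exon length, the 50 genes spanned 0.15 to 126 RPKM (CPM divided by exon length in kilobases, mean of the 4 group means). The ATP-sensitive channel genes took 37.5% of the summed RPKM with 4 genes, the K2P genes 27.8% with 7, the voltage-gated pores 16.5% with 16 and the auxiliary subunits 14.1% with 9. Calcium- and sodium-activated pores took 2.42% with 6 genes, other inward rectifiers 1.17% with 5 and silent subunits 0.471% with 3. The plot of levels by class shows 2 ATP-sensitive and 1 K2P gene above the rest. On this length-corrected scale Abcc8, the sulfonylurea receptor, was at 126 RPKM, Kcnk16, an islet K2P channel, at 101, and Kcnj11, the pore of the beta cell ATP-sensitive channel, at 46.9. Kcnh2, an ERG-type pore, followed at 26.2, Kcnmb2, an auxiliary subunit of the BK channel, at 24.6, Kcnip1, a calcium-binding subunit of A-type channels, at 23.9, Kcnk1 at 21.5, Kcnh6, another ERG-type pore, at 19.2 and Kcnab3, an auxiliary subunit, at 9.69.

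**Figure D1:**
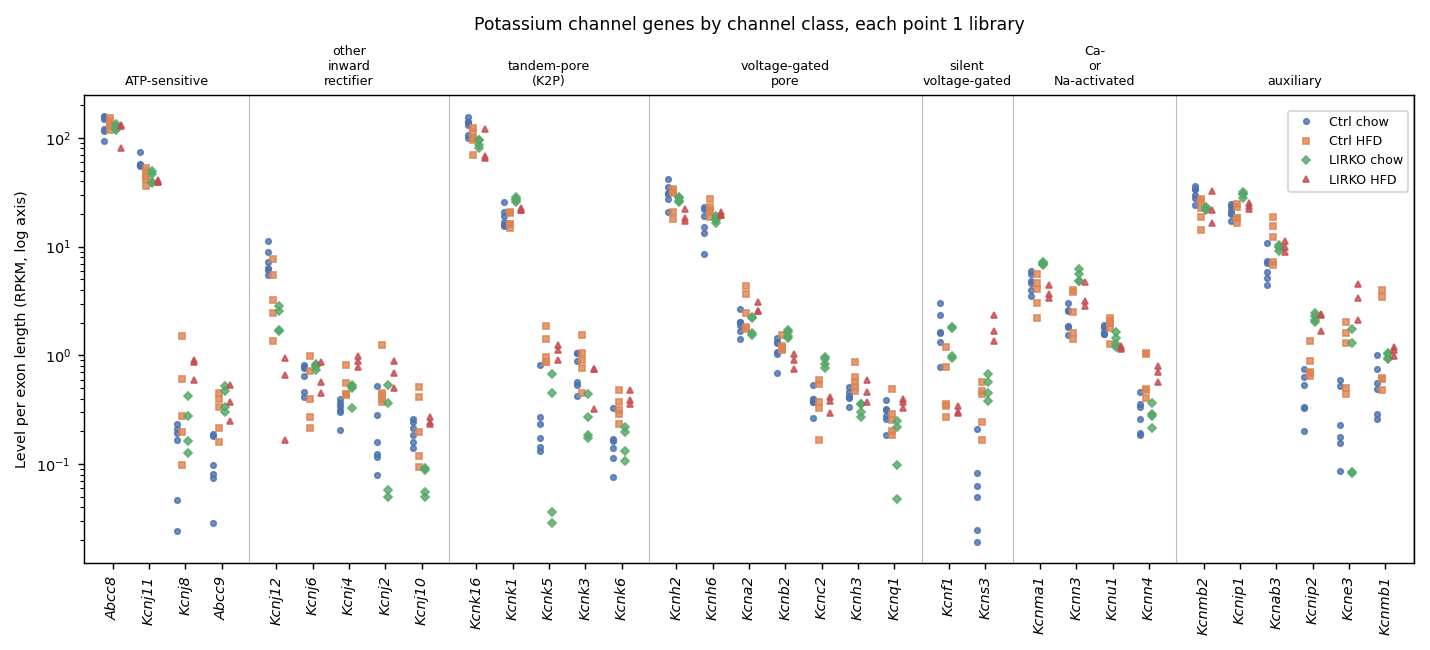
Level per exon length (RPKM, log axis) of 33 potassium channel genes named in the text, grouped by class, with each point 1 library and colour and shape the group (6 Ctrl and 4 LIRKO libraries on chow, 5 and 3 on HFD). Abcc8, Kcnk16 and Kcnj11 lie highest, and Kcns3, Kcnk5, Kcnj8 and Kcnj12 spread most between libraries.

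The spread between libraries was wide for some genes and narrow for others. Kcnj12 spanned 66.1-fold from its lowest library (0.464 CPM) to its highest (30.7), Kcnk5 64.9-fold and Kcne3 55-fold. Kcns3 and Kcnj8 each ran from 0.0616 CPM, which was 2 counts, to 7.5 and 3.86 CPM. Kcnk1 spanned 1.92-fold over the 18 libraries (33.3 to 64 CPM), and Abcc8 and Kcnip1 spanned 1.95-fold each.

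LIRKO was compared with Ctrl on chow to ask how channel transcripts differ in beta cells of mice whose liver lacks the insulin receptor. By edgeR's quasi-likelihood test 12 of the 50 genes passed an adjusted p of 0.05, 7 higher and 5 lower in LIRKO. This is 24% of the genes, against 5.15% of the 19284 genes tested (2.95% higher and 2.2% lower), and 5.97% of the protein-coding genes at or above 1 CPM. Of the 12, Abcc9, Kcnj10 and Kcns3 had a mean under 1 CPM in 1 group, so that their differences are in part set by the choice of genes. The libraries of the groups did not overlap for 15 of the 50, which is 30.0% against 11.7% of all genes. The median log2 change of the 50 was −0.01, as against −0.023 over all genes. The 12 were spread over all 7 classes: 2 auxiliary, 2 voltage-gated pore, 2 inward rectifier, 2 K2P, 2 ATP-sensitive, 1 calcium-activated and 1 silent subunit gene. With the nearly identical LIRKO chow pairs summed, only Kcnip2 and Kcns3 passed (2 of 50, against 0.976% of all genes), and without 1 LIRKO chow library 6 passed (replicate 1 or 2) or 5 (replicate 3 or 4). Over all genes the share called was 2.25% to 5.89% with any 1 of the 18 libraries left out.

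Kcnip2, a calcium-binding subunit of A-type potassium channels, was the gene with the smallest adjusted p of the 12. The gene (ENSMUSG00000025221) spans 45791839 to 45816061 on chromosome 19. It was at 0.704 to 2.59 CPM in Ctrl chow (median 1.52), at 2.38, 3.12, 2.46, 4.75 and 2.27 in Ctrl HFD, at 7.42, 7.06, 7.99 and 8.45 in LIRKO chow and at 5.81, 8.15 and 8.44 in LIRKO HFD. Every LIRKO library lay above every Ctrl library. On chow the mean rose from 1.61 ± 0.722 (SD, n = 6) to 7.73 ± 0.616 (n = 4), a 4.8-fold change (log2 2.26 ± 0.30 SE, edgeR adjusted p = 0.000266, and 0.00897 with the pairs summed).

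Kcns3, a silent subunit that joins the delayed rectifier pores, had the largest rise (ENSMUSG00000043673, chromosome 12, 11090202 to 11151056). It was at 0.0616 to 0.669 CPM in Ctrl chow (median 0.179), at 1.39, 1.82, 0.77, 1.48 and 0.528 in Ctrl HFD, at 1.2, 1.42, 2.14 and 1.81 in LIRKO chow and at 4.3, 7.5 and 5.29 in LIRKO HFD. The LIRKO libraries lay above the Ctrl libraries within each diet, and Ctrl HFD overlapped LIRKO chow. On chow the rise was 6.69-fold (log2 2.74 ± 0.48 SE, adjusted p = 0.00235, and 0.0301 with the pairs summed).

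**Figure D2:**
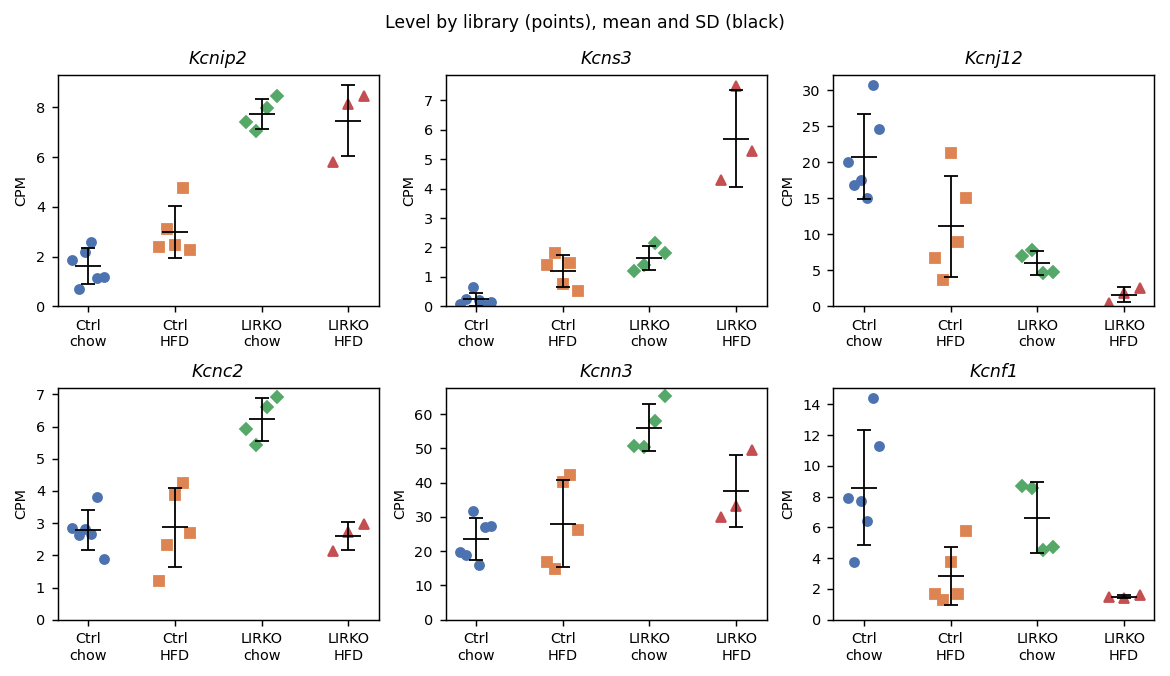
Level by library (CPM, each point 1 library, black lines the mean and SD) of 6 genes in the 4 groups. All LIRKO libraries of Kcnip2 lie above all Ctrl libraries, those of Kcnj12 lie below the Ctrl libraries of the same diet, Kcnc2 is highest in LIRKO chow, and Kcnf1 is lower on HFD.

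Among the other genes that were higher in LIRKO on chow, Abcc9, the regulatory subunit of vascular and muscle ATP-sensitive channels, was at 0.239 to 1.6 CPM in Ctrl chow (median 0.751) and at 2.55, 2.84, 3.95 and 4.36 in LIRKO chow. The groups did not overlap, and the change was 3.7-fold (log2 1.89, adjusted p = 0.00919). Kcnn3, a small-conductance calcium-activated pore, was at 16.0 to 31.7 CPM (median 23.3) in Ctrl chow and at 50.8, 50.5, 58 and 65.2 in LIRKO chow, also without overlap (2.39-fold, adjusted p = 0.00922). Kcnc2, a fast delayed rectifier pore, rose 2.23-fold, from 2.78 ± 0.616 to 6.22 ± 0.667 CPM (adjusted p = 0.0151). The abundant genes Kcnip1 (132 ± 16.8 to 188 ± 10.0 CPM, adjusted p = 0.0251) and Kcnk1, a weakly rectifying K2P channel (42.4 ± 8.69 to 60.7 ± 2.54 CPM, adjusted p = 0.0342), rose 1.42-fold and 1.43-fold. In all 7 of these genes every LIRKO chow library was above every Ctrl chow library. With the nearly identical LIRKO chow pairs summed, only Kcnip2 and Kcns3 of the 7 passed.

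Of the 5 genes that were lower, Kcnj12, an inward rectifier pore, fell the most (ENSMUSG00000042529, chromosome 11, 61022564 to 61071131). It was at 15.1 to 30.7 CPM in Ctrl chow (median 18.7), at 6.75, 3.72, 21.3, 8.88 and 15 in Ctrl HFD, at 7.03, 7.81, 4.61 and 4.72 in LIRKO chow and at 0.464, 1.81 and 2.61 in LIRKO HFD. Within each diet the LIRKO libraries lay below the Ctrl libraries. On chow it was 3.44-fold lower (log2 −1.78 ± 0.44 SE, adjusted p = 0.0225). With the nearly identical LIRKO chow pairs summed, none of the 5 lower genes passed. Kcnj10, another inward rectifier, was 2.78-fold lower (1.08 ± 0.252 to 0.385 ± 0.118 CPM, adjusted p = 0.0485), and Kcnk3, an acid-sensitive K2P channel, 2.8-fold lower (2.99 ± 1.11 to 1.06 ± 0.481 CPM, adjusted p = 0.0327). Kcnk3 was the one of the 12 whose groups overlapped. In Ctrl chow it was at 4.18, 3.52, 2.11, 4.19, 1.7 and 2.25 CPM in replicate order. The summed markers of PP cells, another islet cell type, were there at 2234, 1452, 734, 1475, 412 and 619. In LIRKO chow these sums were at 333, 331, 555 and 469, and Kcnk3 at 0.735, 0.698, 1.74 and 1.07. Of 5 PP cell markers tested 1 was called lower in LIRKO on chow (20.0%, against 2.2% of all genes) and 0 higher. The part of PP cells in the change of Kcnk3 was not tested.

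Kcnj11 was lower and Abcc8 was not called, although both proteins form 1 channel and the genes lie 3758 bases apart on chromosome 7, on the same strand (Kcnj11 at 46093953 to 46100764 and Abcc8 at 46104523 to 46180033, GRCm38). Kcnj11 was at 203, 208, 207, 212, 206 and 271 CPM in Ctrl chow, at 173, 181, 144 and 142 in LIRKO chow, at 133, 154, 183, 165 and 194 in Ctrl HFD and at 150, 144 and 144 in LIRKO HFD. Ctrl chow lay above each of the other 3 groups without overlap. The change in LIRKO on chow was 1.36-fold (log2 −0.44 ± 0.13 SE, adjusted p = 0.0494) and passed by little. Without Ctrl chow replicate 6, the highest library, it was log2 −0.37 with an adjusted p of 0.0981, and the call was lost for 15 of the 18 libraries left out in turn. Abcc8 was at 1071 ± 213 CPM in Ctrl chow, 1015 ± 60.1 in LIRKO chow, 1089 ± 110 in Ctrl HFD and 918 ± 226 in LIRKO HFD, with log2 changes from −0.25 to 0.02 in the pairwise tests and adjusted p-values from 0.72 to 0.925. The ratio of Abcc8 to Kcnj11, each per exon length, was 2.24 ± 0.394 in Ctrl chow, 2.93 ± 0.531 in LIRKO chow, 3.03 ± 0.435 in Ctrl HFD and 2.87 ± 0.764 in LIRKO HFD, and the ranges of the 4 groups overlapped.

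**Figure D3:**
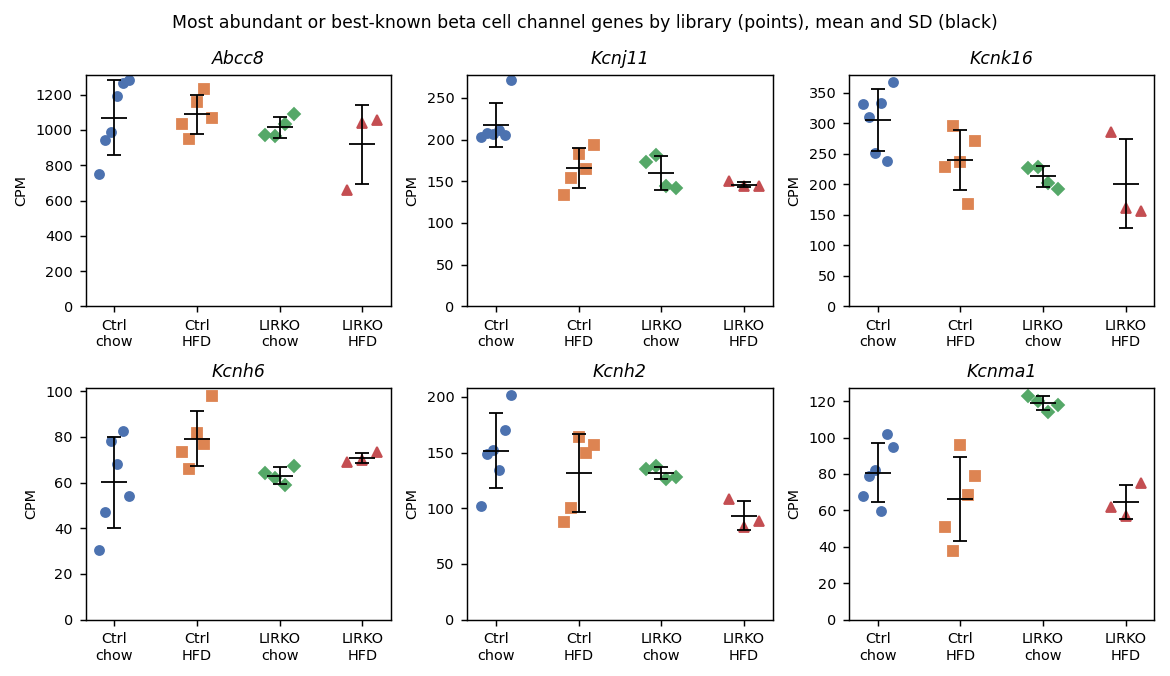
Level by library (CPM, each point 1 library, black lines the mean and SD) of 6 abundant or well-studied beta cell channel genes, each axis starting at 0. Kcnj11 is highest in Ctrl chow, Kcnma1 in LIRKO chow, and the groups of Abcc8 and Kcnh6 overlap for genotype.

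Several well-studied beta cell channel genes did not pass for genotype on chow. Kcnk16 was at 239 to 368 CPM in Ctrl chow (median 320) and at 227, 229, 203 and 193 in LIRKO chow. These groups did not overlap, but with a log2 change of −0.52 ± 0.19 SE the adjusted p was 0.13 (0.0283 in a fit of these groups alone). Of 28 alternatives 27 did not call Kcnk16, with an adjusted p of up to 0.569. Kcnma1, the BK channel pore, was at 59.4 to 102 CPM (median 80.5) in Ctrl chow and at 123, 120, 114 and 118 in LIRKO chow, again without overlap (log2 0.55, adjusted p = 0.134, and 0.0278 in a fit of these groups alone). It was not called in 26 of the 28 alternatives, with an adjusted p of up to 0.551. Fits of these groups alone count the nearly identical LIRKO chow pairs as 4 libraries. Kcnh2 differed by log2 −0.20 (151 ± 33.6 and 132 ± 5.96 CPM, adjusted p = 0.614). Kcnq1, a slow delayed rectifier pore, was at 0.758 to 1.61 CPM in Ctrl chow and at 0.196, 0.399, 0.899 and 1.02 in LIRKO chow (log2 −0.93, adjusted p = 0.195). Its gene overlaps Kcnq1ot1, a long RNA on the opposite strand at 98.7 CPM, and the strand setting of the counting is not given in the sources used here.

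The same genotype comparison on HFD called 2 of the 50 genes, 4.0% against 0.508% of all genes tested (1 higher against 0.316%, 1 lower against 0.192%). Both had passed on chow. Kcnj12 was 6.82-fold lower in LIRKO, at 1.63 ± 1.08 CPM (n = 3) and 11.1 ± 7.03 (n = 5) in Ctrl (log2 −2.77 ± 0.54 SE, adjusted p = 0.022). Kcns3 was 4.8-fold higher, at 5.69 ± 1.64 and 1.2 ± 0.531 CPM (log2 2.26 ± 0.50 SE, adjusted p = 0.0493). The groups did not overlap for 9 genes, 18% against 5.01% of all genes: Kcne3, Kcnk1, Kcns3 and Kcnip2 were higher in every LIRKO library, and Kcnb2, Kcnab1, Kcnu1 and Kcnj12 among those lower. Kcns3 and Kcne3 had a mean under 1 CPM in 1 group and entered through the groups in which they were higher. Their differences, and so these shares, are in part set by the choice of genes. Kcnip2 had a log2 change of 1.32 and an adjusted p of 0.0903. The median over the 50 was −0.042, and −0.035 over all genes. DESeq2 called 5 (10%, against 1.81% of all genes) and limma voom 3 (6%, against 0.726%). With the chow pairs summed neither gene passed by edgeR (Kcnj12 0.0545 and Kcns3 0.102, with 10 genes at an unadjusted p under 0.05, and 0.273% of all genes called), and 0 passed without Ctrl HFD replicate 5 or without any 1 LIRKO HFD library (6 to 8 unadjusted). Only 1 passed without Ctrl chow replicate 2, 4 or 6, Ctrl HFD replicate 1 or 3, or any 1 LIRKO chow library. The share of all genes was 0.05% to 0.842% with 1 library left out.

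Over the 50 genes the genotype changes on chow and on HFD, which share no library, had the same sign in 35 (70.0%, against 63.4% of all genes tested), with Pearson's r of 0.73 and Spearman's rho of 0.59 across genes (0.45 and 0.38 over all genes), given as a description since genes are not independent replicates. The values over all genes carry no limit of 1 CPM. The ends of the range of the 50 were Kcns3 (log2 2.74 on chow and 2.26 on HFD) and Kcnj12 (−1.78 and −2.77). Kcns3 entered through the groups in which it was higher. Of the 12 called on chow, 11 had the same sign on HFD, and the exception was Kcnc2 (log2 1.16 on chow and −0.15 on HFD). Over all genes called on chow this share was 88.9%. The test of the difference between the 2 genotype effects, the genotype by diet interaction, called 0 of the 50 (0.00519% of all genes, which is 1 gene) by edgeR, and 0 by DESeq2 (0.231% of all genes), by limma voom and with the pairs summed (4 unadjusted). At an unadjusted p of 0.05 it took 6 of the 50, 12% against 5.52%. The smallest p-values belonged to Kcnb2 (log2 −0.93 ± 0.26 SE, adjusted p = 0.449), Kcnc2 (−1.31 ± 0.41, 0.617) and Abcc9 (−1.59 ± 0.61, 0.809), and the others were Kcnj10, Kcnq1 and Kcnip2. For none of these genes is a genotype effect shown to differ between diets. Of the 6, Abcc9, Kcnj10 and Kcnq1 had a mean under 1 CPM in 1 group, so that the share of 12% is in part set by the choice of genes.

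Averaged over both diets, genotype called 10 genes, 20.0% against 5.68% of all genes: 6 were higher in LIRKO (12%, against 3.16%) and 4 lower (8.0%, against 2.52%). Kcnip2 rose 3.46-fold (adjusted p = 0.0001), Kcns3 5.67-fold (0.000239) and Kcnn3 1.79-fold (0.0167), with Kcnk1 (1.33-fold), Kcnip1 (1.29-fold) and Abcc9 (2.13-fold). Kcns3 and Abcc9 had a mean under 1 CPM in 1 group, so that their differences are in part set by the choice of genes. Kcnj12 fell 4.84-fold (0.000594), Kcnk3 2.08-fold (0.0368) and Kcnu1, a pore related to the BK channel and best known from sperm, 1.41-fold (0.017). Kcnu1 was called in neither diet alone, at 6.46 ± 0.522 and 5.19 ± 0.726 CPM on chow and at 7.01 ± 1.36 and 4.39 ± 0.15 on HFD (Ctrl and LIRKO). With the chow pairs summed, 4 passed (8%, against 2.56% of all genes), among them Kcnip2, Kcns3 and Kcnj12. These 3 also passed with any 1 library left out, whereas the count fell to 6 without LIRKO HFD replicate 2 and to 4 without LIRKO HFD replicate 3, with 3.03% to 7.69% of all genes called over all libraries left out in turn.

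**Figure D4:**
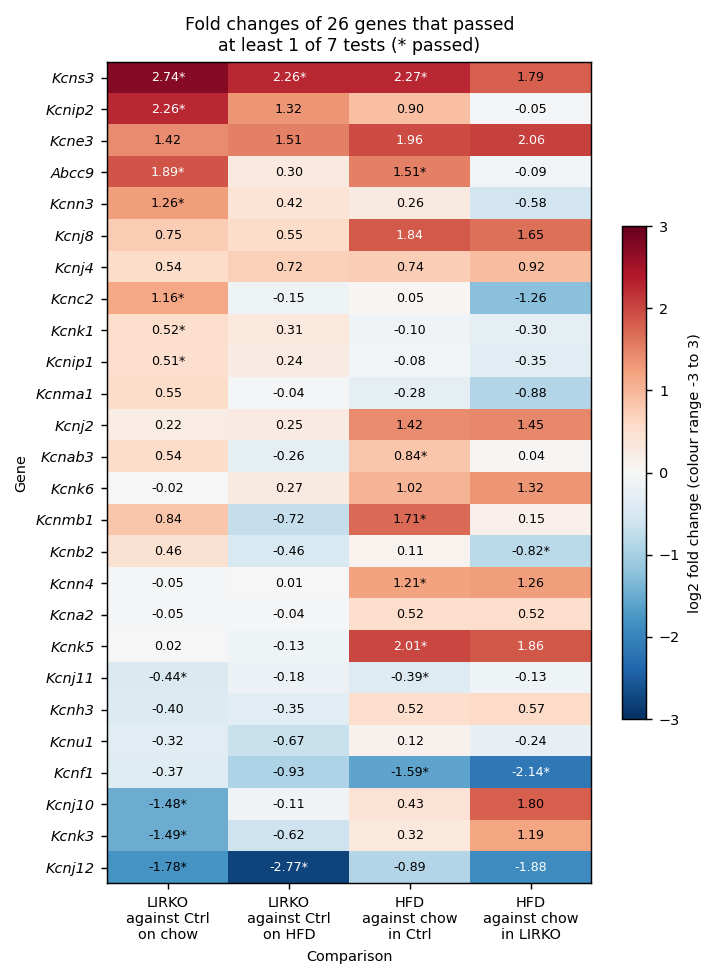
Log2 fold changes (colour and printed values) in the 4 pairwise comparisons of 26 genes that passed at least 1 of the 7 tests, ordered by the genotype change averaged over diets, with an asterisk where the adjusted p was under 0.05. In both genotype columns Kcns3 has the highest value of the genes shown and Kcnj12 the lowest.

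HFD was compared with chow in Ctrl mice to ask how the diet alone alters channel transcripts. There 8 of the 50 genes passed, 16.0% against 9.93% of all genes, with 6 higher on HFD (12%, against 5.57%) and 2 lower (4.0%, against 4.35%). The groups did not overlap for 3 (Kcnk5, Kcnj4 and Kcnj11), 6.0% against 3.56%. The median change was 0.106, and 0.043 over all genes. Of the 8, Abcc9 and Kcns3 had a mean under 1 CPM in 1 group, so that their differences are in part set by the choice of genes. The same holds for Kcnj4 among the 3. Higher were Abcc9 (2.84-fold), Kcnn4 (2.31-fold), Kcnmb1 (3.27-fold), Kcnab3 (1.79-fold), Kcns3 (4.82-fold) and Kcnk5 (4.02-fold), and lower were Kcnf1 (3.0-fold) and Kcnj11 (1.31-fold). Without Ctrl HFD replicates 1 and 2 none of these calls remained (0 of 50 by edgeR, and 15 at an unadjusted p under 0.05), while the share of all genes called fell from 9.93% to 0.18%. With the LIRKO chow pairs summed none remained either (0, and 19 unadjusted), with 0.577% of all genes called. With all libraries DESeq2 called 16 (32%, against 20.3% of all genes) and limma voom 8 (16%, against 8.42%). The count was also 0 without Ctrl chow replicate 1 or 6 or Ctrl HFD replicate 1 or 2 (16 to 18 unadjusted), 2 without Ctrl chow replicate 2, 4 without Ctrl chow replicate 5, LIRKO chow replicate 3 or 4 or LIRKO HFD replicate 2 or 3, 5 without LIRKO chow replicate 1 or 2 or LIRKO HFD replicate 1, and 14 without Ctrl chow replicate 4 or Ctrl HFD replicate 3 or 5 (28%, against 20.1%, 19.8% and 15.7% of all genes). Over all libraries left out in turn the share of all genes was 0.359% to 20.1%.

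Kcnmb1, an auxiliary subunit of the BK channel best known from smooth muscle, showed this dependence most plainly. It was at 16.9 and 14.4 CPM in Ctrl HFD replicates 1 and 2, at 2.52, 2.58 and 2.03 in the other 3, at 1.08 to 4.19 in Ctrl chow (median 2.21), at 4.36, 3.99, 4.41 and 3.9 in LIRKO chow and at 4.12, 4.75 and 4.99 in LIRKO HFD. Only these 2 libraries lay above the range of the rest. Without them the log2 change was 0.07 in place of 1.71 ± 0.51 SE. Kcnmb1 lies within the locus of Kcnip1 on the opposite strand (chromosome 11, 33963013 to 33973641). Kcnip1 was at 102 and 114 CPM in these 2 libraries and at 152, 113 and 144 in the other 3 of Ctrl HFD. Whether reads of 1 of these genes were counted for the other was not tested. Kcnab3, an auxiliary subunit of voltage-gated channels, was at 44.4 and 53.7 CPM in the same 2 libraries, at 20.8, 19.5 and 35.1 in the other 3 and at 12.6 to 30.7 in Ctrl chow (median 18.5), with a log2 change of 0.84 that was 0.42 without them. Kcnn4, an intermediate-conductance calcium-activated pore, was at 5.36 and 5.31 CPM in them, at 2.49, 2.46 and 2.09 in the other 3 and at 0.95 to 2.35 in Ctrl chow, with a log2 change of 1.21 that was 0.66 without them.

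Kcnf1, a silent subunit of the delayed rectifiers, was lower on HFD in both genotypes (ENSMUSG00000051726, chromosome 12, 17172100 to 17176888). It was at 3.78 to 14.4 CPM in Ctrl chow (median 7.82), at 1.64, 1.3, 3.73, 1.7 and 5.76 in Ctrl HFD, at 8.67, 8.58, 4.53 and 4.72 in LIRKO chow and at 1.45, 1.42 and 1.63 in LIRKO HFD. The diet groups overlapped in Ctrl and did not in LIRKO. The change was 3.0-fold in Ctrl (log2 −1.59 ± 0.39 SE, adjusted p = 0.0338) and 4.41-fold in LIRKO (log2 −2.14 ± 0.51 SE, adjusted p = 0.0329).

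HFD against chow in LIRKO called 2 genes, 4.0% against 2.03% of all genes, 0 higher (1.06% of all genes) and 2 lower (against 0.975%). They were Kcnf1 and Kcnb2, a delayed rectifier pore that fell 1.76-fold, from 21.8, 23, 24.8 and 26.2 CPM to 13.9, 11.3 and 15.6 (log2 −0.82 ± 0.20 SE, adjusted p = 0.0445). In Ctrl mice Kcnb2 was at 10.5 to 22.1 CPM on chow (median 17.9) and at 18.7, 17.6, 23.5, 17.2 and 16.9 on HFD, and it differed by log2 0.11 (adjusted p = 0.631). The libraries did not overlap for 23 genes, 46.0%, in a comparison of 3 with 4 libraries in which this held for 34.4% of all genes, and 20 genes had an unadjusted p under 0.05. Of the 23, Kcne3, Kcnj10, Kcnj4, Kcnj8, Kcnk6, Kcnq1 and Kcns3 had a mean under 1 CPM in at least 1 group. This share is thus in part set by the choice of genes. DESeq2 called 10 (5 higher and 5 lower, 20% against 5.49% of all genes) and limma voom 11 (8 and 3, 22% against 4.36%) where edgeR called 2. The median over the 50 was −0.011, and 0.032 over all genes. With the LIRKO chow pairs summed edgeR called 0 (12 at an unadjusted p under 0.05, and 0.0354% of all genes called). It called 0 without LIRKO chow replicate 1 or 2 or any 1 LIRKO HFD library (13 to 16 unadjusted), 1 without Ctrl chow replicate 1, 2 or 6, Ctrl HFD replicate 5 or LIRKO chow replicate 3 or 4, 4 without Ctrl chow replicate 3 or Ctrl HFD replicate 1, 3 or 4, and 5 without Ctrl HFD replicate 2, with 0.284% to 2.62% of all genes called over the libraries left out.

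Averaged over genotypes, diet called 15 of the 50 genes, 30.0% against 21.2% of all genes and 23.1% of protein-coding genes at or above 1 CPM. On HFD 11 were higher (22.0%, against 12.1%) and 4 lower (8.0%, against 9.18%). Of the 11, Kcns3, Kcne3, Kcnj8, Kcnk6, Kcnj10 and Kcnj4 had a mean under 1 CPM in at least 1 group. Their differences, and so these shares, are in part set by the choice of genes. The 4 lower genes were Kcnf1 (3.64-fold, adjusted p = 0.00243), Kcnj12 (2.62-fold, 0.0119), Kcnc2 (1.52-fold, 0.0456) and Kcnma1 (1.49-fold, 0.0201). Of the 11 higher genes, Kcns3 rose 4.09-fold (0.00249), Kcne3, a single-pass auxiliary subunit that binds Kcnq1, 4.03-fold (0.0197), Kcnk5, an alkaline-activated K2P channel, 3.82-fold (0.0164) and Kcnj8, the pore of vascular ATP-sensitive channels, 3.35-fold (0.0205). Kcnj2, an inward rectifier, rose 2.7-fold (0.0373), Kcnn4 2.35-fold (0.0045), Kcnk6, a K2P channel, 2.25-fold (0.00839), Kcnj10 2.17-fold (0.0187), Kcnj4 1.78-fold (0.00945), Kcnh3 1.46-fold (0.0235) and Kcna2 1.43-fold (0.045). With the LIRKO chow pairs summed 4 passed (8%, against 3.23% of all genes): Kcnf1, Kcnk6, Kcnn4 and Kcns3. Without LIRKO HFD replicate 2 the count was 8, with 6.52% to 30.5% of all genes called over the libraries left out.

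The diet changes in Ctrl and in LIRKO, which share no library, had the same sign in 38 of the 50 genes (76.0%, against 76.0% of all genes tested). Across genes r was 0.76 and rho 0.70, and both were 0.66 over all genes, which carry no limit of 1 CPM. Of the 8 genes called in Ctrl, 7 had the same sign in LIRKO (87.5%, against 93.8% of all genes called in Ctrl). The exception was Abcc9, with log2 1.51 in Ctrl and −0.09 in LIRKO, where it was at 2.55 to 4.36 CPM on chow and at 2.09, 4.45 and 3.13 on HFD.

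Some of the genes that were higher on HFD moved with marker genes of blood vessel cells, as the plot of channel genes against these markers shows. Of 12 endothelial markers 11 (91.7%) were higher on HFD averaged over genotypes, as were 9 of 15 mural (60.0%) and 9 of 14 myeloid markers (64.3%). Of all genes 12.1% were higher in this comparison. The summed endothelial markers in Ctrl were at 44.1 to 232 CPM on chow and 182 to 371 on HFD, and in LIRKO at 20.5, 24.8, 205 and 176 on chow and 285 to 364 on HFD. The mural markers summed to 9.21 to 34.9, 32.7 to 97.6, 6.98 to 43.2 and 66.5 to 72.6 CPM in the same order. All 12 endothelial markers were detected in every library, while the mural markers Acta2, Des, Pdgfra, Col1a1, Col3a1 and Lum were at 0 in at least 1.

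Kcnk5 was at 0.098 and 0.125 CPM in LIRKO chow replicates 1 and 2 and at 2.32 and 1.54 in replicates 3 and 4, the same split as the endothelial sums. In Ctrl chow it was at 2.76 CPM in replicate 3, which had the highest endothelial sum of that group, and at 0.447 to 0.918 in the others. On HFD it was at 6.35, 4.8, 2.99, 3.27 and 2.98 CPM in Ctrl and at 4.27, 3.86 and 3.06 in LIRKO. Kcne3 split in LIRKO chow in the same way (0.147, 0.15, 3.1 and 2.31 CPM), as did Kcnj2 (0.318, 0.274, 2.9 and 2) and, less widely, Kcnk6 (0.441, 0.549, 0.819 and 0.906). Kcnj8 was at 0.416, 0.324, 1.08 and 0.714 CPM there, at 0.0616 to 0.592 in Ctrl chow (median 0.46), at 0.248, 3.86, 0.71, 1.54 and 0.502 in Ctrl HFD and at 2.21, 2.29 and 1.5 in LIRKO HFD. In these bulk libraries more cells of a type and more RNA per cell cannot be told apart, and the part of other cells in these changes was not tested. Within LIRKO chow, Kcns3, Kcnip2, Kcnn3 and Abcc9 were also lower in replicates 1 and 2 than in replicates 3 and 4, by smaller ratios than Kcnk5, Kcne3 or Kcnj2. Abcc9 was at 2.55 and 2.84 CPM in the former and at 3.95 and 4.36 in the latter. In all 4 replicates these 4 genes lay above every Ctrl chow library. The part of other cells in the genotype changes of these 4 genes was not tested.

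**Figure D5:**
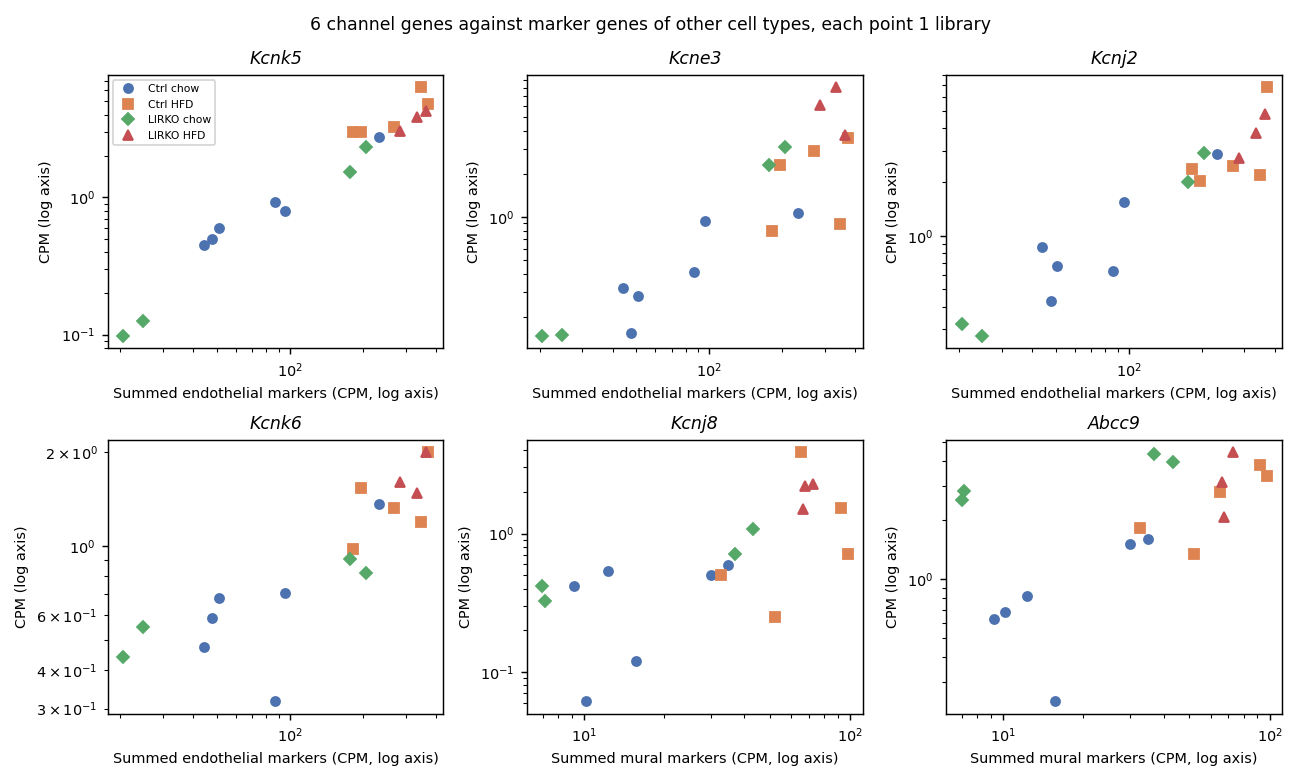
Level of 6 channel genes (CPM, log axis) against the summed CPM of 12 endothelial or 15 mural marker genes (log axis), each point 1 library, colour and shape the group. LIRKO chow replicates 1 and 2 lie at the lower left for Kcnk5, Kcne3 and Kcnj2, while for Abcc9 all 4 LIRKO chow replicates lie above the Ctrl chow libraries, replicates 1 and 2 below 3 and 4.

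Alpha cell markers were also compared, since the sort gate selects on no marker. In LIRKO on chow 4 of 10 tested were higher (40.0%, against 2.95% of all genes). These were Gc (log2 1.90), Slc38a5 (2.01), Etv1 (0.94) and Ttr (0.85), named here after their values were seen. The summed alpha cell markers were at 527 to 1990 CPM in Ctrl chow and at 716, 725, 2183 and 2348 in LIRKO chow, and the groups overlapped. Gc was at 252, 264, 264 and 252 CPM in LIRKO chow, without such a split, and at 48.8 to 77.9 in Ctrl chow. The part of alpha cells in the changes of channel genes was not tested. Of 7 delta cell markers tested none was called in any of the 7 comparisons by edgeR (0 to 5 at an unadjusted p under 0.05), with Sst at 98.3 to 765 CPM and Hhex at 0 in every library.

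Of 20 tested genes for known partners of potassium channels, whose symbols do not start with Kcn, 1 was higher in LIRKO on chow, 3 were lower and 16 did not pass. These 4 are 20% of the list, against 5.15% of all genes, and with the LIRKO chow pairs summed 0 of the 4 passed (adjusted p from 0.0982 to 0.338). This list, like the marker lists, was chosen with earlier results of these data known. Its shares may thus be in part set by the choice. Dpp6, which joins A-type channels together with the Kcnip subunits, was at 7.25, 8.21, 8.55 and 7.88 CPM against 2.69 to 6.52 in Ctrl chow (log2 0.86, adjusted p = 0.0163). Its relative Dpp10 was at 4.63, 5.51, 5.73 and 5.3 CPM against 7.26 to 13.7 (log2 −0.97, adjusted p = 0.0382). The 2 genes changed in opposite directions, each without overlap between the groups. Amigo1, an adhesion protein that binds delayed rectifier channels, was lower (103 ± 14.3 to 67.6 ± 5.51 CPM, log2 −0.61, adjusted p = 0.00445), and so was Stx1a, a SNARE protein of insulin granule release (15.5 ± 2.67 to 9.66 ± 0.357 CPM, log2 −0.68, adjusted p = 0.00381). On HFD 0 of 20 partners passed for genotype by edgeR (2 at an unadjusted p under 0.05), and for diet in Ctrl mice 2 of 20 did (10%, against 9.93% of all genes). These were the calmodulin genes Calm2 (log2 −0.65) and Calm3 (log2 −0.43), whose products are the calcium sensors of the small-conductance channels. Neither passed without Ctrl HFD replicates 1 and 2 (adjusted p 0.203 and 0.205) or with the pairs summed (0.0637 and 0.0751). The median change of the partners in LIRKO on chow was −0.02.

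A list of 43 tested genes for glucose coupling, depolarising channels and pumps stood beside these. It too was chosen with earlier results of these data known, so that its shares may be in part set by the choice. In LIRKO on chow 1 was higher and 4 lower (11.6%, against 5.15% of all genes). The sodium channel pore gene Scn3a rose from 13.0 ± 3.31 to 30.7 ± 4.4 CPM (log2 1.24, adjusted p = 0.000477). The T-type calcium channel gene Cacna1g (log2 −1.23), the calcium-activated cation channel gene Trpm5 (log2 −1.40) and the transcription factor gene Pdx1 (log2 −0.90) were among the 4 lower on chow. With the pairs summed Scn3a passed (adjusted p = 0.014) and these 3 did not. On HFD in Ctrl 3 were higher (Scn3a, Scn8a and Ano1) and 3 lower (G6pc2, Pdx1 and Mafa), 14% against 9.93% of all genes, of which 0 passed without Ctrl HFD replicates 1 and 2 and 1 (Scn3a) with the pairs summed. In LIRKO, Cacna1g was higher on HFD (log2 1.56) and Mafa lower (log2 −2.24), 4.65% against 2.03% of all genes, and neither passed with the pairs summed.

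Of the 50 potassium channel genes, 27 passed in at least 1 of the 7 comparisons (54%, against 27.8% of all 19284 genes tested). In a pairwise one 18 of them passed (36%, against 14.9%), and 23 passed in none. The 27 include Abcc9, Kcne3, Kcnj10, Kcnj4, Kcnj8, Kcnk6 and Kcns3, which entered through the groups in which they were higher. The shares of the channel genes are thus in part set by the choice, and the shares of all genes carry no limit of 1 CPM. Those 23 include Abcc8, Kcnk16, Kcnh2, Kcnh6, Kcnmb2, Kcnq1 and Kcnj6, a G protein-gated inward rectifier at 1.63 to 7.58 CPM over all libraries. Kcnh6 was at 30.5 to 82.8 CPM in Ctrl (median 61.2) and 58.9 to 67.3 in LIRKO on chow, and at 66.1 to 98.1 in Ctrl and 69.1 to 73.3 in LIRKO on HFD. Kcnmb2 was below the Ctrl chow range (75.2 to 112 CPM) in all 4 LIRKO chow libraries (68.6 to 72), with a log2 change of −0.46 and an adjusted p of 0.177.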

How the data were processed

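RNA from sorted beta cells of 18 libraries was sequenced after a strand-marking library preparation, per the labels' protocols. The authors deposited raw read counts per Ensembl gene ID, made with STAR and featureCounts on GRCm38, per the submitters' processing notes. Not given in the sources used here are versions, annotation release and the setting for strand. Of 53090 gene IDs, 52489 matched GENCODE M21, which gave symbols, gene types and exon lengths. Counts were fitted with edgeR 4.0.16 in R 4.3.3: TMM scaling, filterByExpr on the groups (19284 genes kept), 1 coefficient per group over all 18 libraries, and quasi-likelihood tests, two-sided, with Benjamini-Hochberg adjustment over all genes within each of 7 comparisons at a threshold of 0.05. The steps were tested on simulated counts. CPM and RPKM per library use TMM-scaled totals, while the selection of genes used column totals. The members and all gene lists were chosen with earlier results of these data known. Named were genes that passed a comparison, 13 genes set by function where measured, the 10 highest by RPKM and the 3 smallest interaction p-values, and list genes that passed. Alternatives were other scalings, filters, limits of selection, groups in the fit, DESeq2 1.42.0, limma 3.58.1 voom, summed LIRKO chow pairs and left-out libraries. Total counts of 19490235 to 51714775 limit the precision of genes near 1 CPM. Some genes that the rules include in every count are not reported by name here. Replicate numbers follow accession order.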

Additional observations from a re-analysis of the deposited data

Results flagged for a closer look

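Of 99 pairs of a named channel gene and a group of 4 to 6 libraries, 7 (7.07%) had 1 library far from the others of its group, and chance gives about 5%. Of these, 3 lay in Ctrl chow replicate 3: Kcnk5 at 2.76 CPM (others 0.447 to 0.918), Kcns3 at 0.669 CPM (0.0616 to 0.264) and Kcnk6 at 1.36 CPM (0.317 to 0.704). This library also had the highest summed endothelial markers of its group, 232 CPM against 44.1 to 95.7, and the part of those cells in these values was not tested. Kcnj11 stood at 271 CPM in Ctrl chow replicate 6 (others 203 to 212). Kcnb2 stood at 23.5 CPM in Ctrl HFD replicate 3 (16.9 to 18.7), and Kcnj2 at 6.84 CPM in Ctrl HFD replicate 2 (2.04 to 2.46). Kcnj4 was low in LIRKO chow replicate 1, at 0.71 CPM (1.07 to 1.14), although replicate 2, nearly identical to it over all genes, was at 1.1 CPM.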

How the results depend on the processing

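Of 47 calls of a named channel gene in a comparison, 8 passed under every alternative, 39 were lost under at least 1, and 0 changed sign. The 8 were Kcnip2 and Kcns3 for genotype on chow, Kcnip2, Kcns3 and Kcnj12 for genotype averaged over diets, and Kcnf1, Kcnn4 and Kcns3 for diet averaged over genotypes. With the LIRKO chow pairs summed, which leaves fewer libraries, the counts were 2 for genotype on chow, 0 on HFD, 0 for diet in Ctrl, 0 in LIRKO, and 4 for each average, while the shares of all genes called were 0.976%, 0.273%, 0.577%, 0.0354%, 2.56% and 3.23%. With the pairs summed and Ctrl HFD replicates 1 and 2 left out, an alternative chosen after seeing the data, they were 4, 1, 0, 0, 4 and 4 (1.88%, 0.461%, 0.00518%, 0.305%, 3.67% and 2.97% of all genes). Without those replicates alone, diet called 0 in Ctrl (0.18%) and 8 in LIRKO (6.29%). DESeq2 called 5 for genotype on HFD (1.81%), 16 for diet in Ctrl (20.3%) and 10 in LIRKO (5.49%), and limma voom 11 in LIRKO (4.36%). With only the compared groups fitted the counts were 0 for genotype on HFD (0.103%), 0 for diet in Ctrl (0.00585%) and 15 in LIRKO (18.8%). Without the filter on low counts diet called 2 in Ctrl (1.28%) and 1 in LIRKO (0.699%), and genotype on HFD called 1 with upper quartile scaling (0.477%) and 1 of the genes with at least 2 CPM. Where a count was 0, 9 to 19 genes had an unadjusted p under 0.05 in these fits. The causes were not tested.

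With 1 library left out at a time, the counts were 5 to 12 for genotype on chow, 0 to 3 on HFD, 0 to 14 for diet in Ctrl, 0 to 5 in LIRKO, 0 for the interaction, 4 to 11 for genotype averaged and 8 to 22 for diet averaged. Genes that passed in no such comparison changed sign in some settings. For genotype on HFD these were Kcnma1 (0.03 with limma voom) and Kcnj6 (−0.15 without Ctrl HFD replicates 1 and 2, −0.16 with the pairs also summed). For diet in Ctrl, the same 2 settings gave Kcnma1 0.05 and 0.05, Kcnh2 0.10 and 0.10, and Kcnj6 0.17 and 0.17, while upper quartile scaling gave Kcnq1 0.11. For diet in LIRKO it gave Kcnk16 0.03 and Abcc9 0.05. Single libraries left out gave ranges of −0.06 to 0.08 for Abcc8 for diet in Ctrl and −0.26 to 0.04 in LIRKO, −0.39 to 0.14 for Abcc9 in LIRKO and −0.01 to 0.53 for genotype on HFD, −0.03 to 0.64 for Kcnj6 and −0.19 to 0.13 for Kcnma1 for genotype on HFD, −0.43 to 0.07 for Kcnk16 for diet in LIRKO, and −0.34 to 0.07 for Kcnq1 for diet in Ctrl (all log2). No paired analysis was possible because the labels give no replicate numbers.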
